A study of Mus musculus with 10 samples.

Results

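H2-Q7, Gsdmd and Il2 are 3 genes of the immune system whose RNA was measured in extracellular vesicles isolated from mouse brain. They were chosen by name, as the probes whose RefSeq transcript belongs to one of these genes, and they make up 3 of the 46 genes that the arrays name through such a transcript, among 60823 non-control probes. The choice was made with results of these arrays known, so that the levels, the spread and the detection given here are descriptions and not tests. The study exposed adult male C57BL/6J mice to ethanol vapor in repeated daily bouts (CIE, for chronic intermittent ethanol, a way to model alcohol dependence without drinking) or to room air (Control). The bouts lasted 8 h, on 5 days of each week, over 4 weeks. Brains were taken whole right after the last exposure, vesicles were separated from them by differential ultracentrifugation, and RNA of each preparation was hybridised in 1 colour to an Agilent-format array. Each group had 5 arrays, called here by group and by the number, 1 to 10, in the sample title. Neither the number of animals behind a sample nor any pooling is stated, so each p-value reflects the spread over these samples alone, part of which can be technical. The design asks if ethanol changes the RNA of these vesicles.

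H2-Q7 encodes a non-classical class I molecule of the major histocompatibility complex (MHC), a relative of the proteins that present peptides to cytotoxic T cells. Such molecules lie at the cell surface with beta-2 microglobulin, and their genes respond to interferons and to NF-kappa B. Gsdmd encodes gasdermin D, the pore-forming protein of pyroptosis: inflammatory caspases cut it, and its released amino-terminal part opens the plasma membrane and lets interleukin-1 beta out. Il2 encodes interleukin-2, the growth factor of T cells, which activated T cells make through the factor NFAT and which is scarce in a brain without T cell infiltration.

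The sequence upstream of the gene start is shown for H2-Q7, for its neighbouring near copy H2-Q6 and for Il2, because H2-Q7 was detected on every array and belongs to a family of close copies, while Il2 lay at or near background. Each is the stretch of 250 bases before the gene start in the RefSeq promoter table of build GRCm38.p6, 5′ to 3′ on the strand of the gene. Capitals mark matches on either strand. In the H2-Q7 and H2-Q6 sequences these are GGGGATTCC (the kappa B element of MHC class I promoters), TGACG (the core of a cyclic AMP response element) and CCAAT (the CCAAT or Y box, ATTGG on the other strand). In the Il2 sequence they are GGAAA (the core bound by NFAT) and TATAAA (the TATA box). No matches overlap one another.
H2-Q7 (chr17:35438905-35439154, plus strand): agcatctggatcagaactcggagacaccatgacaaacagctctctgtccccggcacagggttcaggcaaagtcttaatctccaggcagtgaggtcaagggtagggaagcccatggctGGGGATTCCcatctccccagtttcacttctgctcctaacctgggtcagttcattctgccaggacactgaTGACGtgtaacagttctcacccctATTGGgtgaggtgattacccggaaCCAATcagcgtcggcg
H2-Q6 (chr17:35424600-35424849, plus strand): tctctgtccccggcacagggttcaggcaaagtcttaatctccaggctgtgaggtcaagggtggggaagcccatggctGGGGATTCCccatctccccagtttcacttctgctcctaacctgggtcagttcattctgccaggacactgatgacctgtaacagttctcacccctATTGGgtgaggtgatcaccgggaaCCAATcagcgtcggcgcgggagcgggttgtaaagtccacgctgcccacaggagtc
Il2 (chr3:37125955-37126204, minus strand): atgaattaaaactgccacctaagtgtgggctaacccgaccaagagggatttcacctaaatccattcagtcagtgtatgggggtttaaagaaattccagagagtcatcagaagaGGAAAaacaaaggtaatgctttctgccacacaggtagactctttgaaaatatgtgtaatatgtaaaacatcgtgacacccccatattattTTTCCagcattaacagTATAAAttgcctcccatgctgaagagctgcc

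The kappa B element was in 70 of the 32851 upstream windows of the table (0.213%), among them those of H2-Q7 and H2-Q6. It began 133 bases before the gene start in H2-Q7 and 173 bases before it in H2-Q6. TGACG was found in the H2-Q7 window, as in 17.8% of all windows, and not in that of H2-Q6. CCAAT was found once on each strand in both, and 33.8% of all windows hold it. GGAAA was found once on each strand of the Il2 window (in 55.6% of all windows), and TATAAA 31 bases before its gene start (in 12.4%). A local alignment of the H2-Q7 and H2-Q6 windows covered 211 columns, of which 205 were identical (97.2%), with 5 mismatches and 1 gap. The RefSeq table also gives Qa-2 as a further name of H2-Q7, H2-Q8 and H2-Q9 alike. The sequence of the array probe was not used here, so the H2-Q7 signal below may include RNA of these copies. A motif match is a property of the sequence alone, and binding was not measured.

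By the scanner software's own call, an array had between 61.6% and 77.0% of its probes well above background. The 75th percentile of the intensity ranged from 69.7 to 192, a span of 2.76-fold. Levels are therefore given as log2 intensity minus that percentile of the same array, so that a value of 0 is as bright as the 75th percentile, and levels of different probes are not compared with each other. Each of the 3 genes had 1 probe printed as 10 spots, which were averaged on the log2 scale after leaving out spots that the software marked as outliers. Of the listed brain markers the arrays name 3 of 11 for neurons, 1 of 7 for oligodendrocytes and 1 of 7 for astrocytes. How specific each is to its cell type was not tested. Mbp from the oligodendrocyte list, Apoe from the astrocyte list, and Chgb, Gabrg1 and Kcnn2 from the neuron list were each well above background on 10 of 10 arrays. The same held for 33078 of the 60823 non-control probes. Such detection is therefore not specific to brain transcripts, and the tissue of origin was not tested. Of 51 listed markers of T and NK cells, microglia and macrophages, B cells, blood and vessel cells, 0 could be matched by name, so the part of such cells in the values was not tested. In vesicle RNA of a whole organ, fewer vesicles of a cell type and less transcript in each cannot be told apart.

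H2-Q7 was well above background in every used spot of all 10 arrays, and it varied more between arrays than any other of the 43 named genes that could be tested. Its level was 6.02 on CIE 2, 4.36 on CIE 3, 1.43 on CIE 5, 1.65 on CIE 8 and 0.68 on CIE 10. In the Control group it was 4.96 on Control 1, 3.38 on Control 4, 1.00 on Control 6, 0.83 on Control 7 and 0.73 on Control 9. The groups overlapped over nearly their whole range, and both held arrays at the top and at the bottom. The 4 arrays numbered 1 to 4, from both groups, lay at 3.38 or above, while the 6 numbered 5 to 10 lay between 0.68 and 1.65, which leaves a gap of 1.72 log2 units (3.30-fold) with no array in it. From the lowest to the highest array the span was 40.3-fold.

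The spread between arrays was far larger than that between spots. On CIE 2 the 10 spots of H2-Q7 read from 6301 to 7002 intensity units, and on Control 7 from 144 to 177. The coefficient of variation over the spots of an array had a median of 3.91% and was at most 6.40%. The SD over the 10 arrays was 2.00 log2 units against a median SD over spots of 0.06, a ratio of 35.2. Among 42857 tested probes with a value on every array, whose median SD was 0.49, it lay above 99.1%, and 398 probes varied more. In descending order of level, each array differed from the next by more than the larger of their spot SDs, except Control 9 and CIE 10, which were 0.05 apart. The span was about as large without scaling between arrays, at 41.4-fold.

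**Figure D1:**
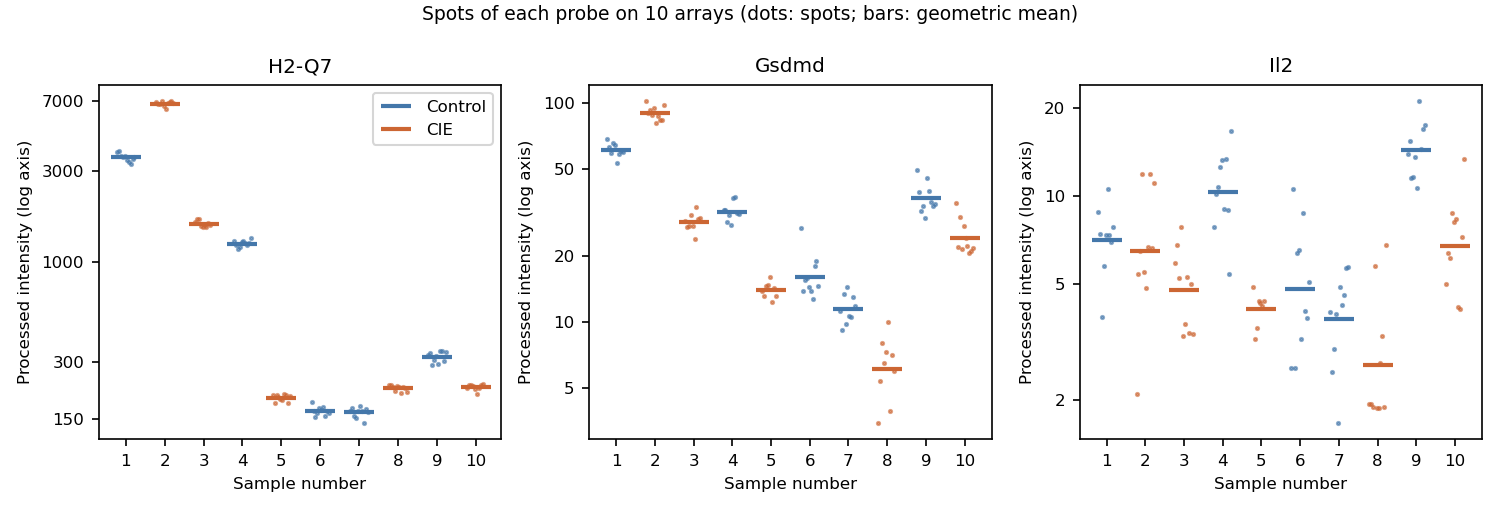
Processed intensity (log axis) of every used spot of the H2-Q7, Gsdmd and Il2 probes against sample number, with Control in blue, CIE in orange and a bar at the geometric mean of the array. The H2-Q7 spots of an array lie close together while the arrays span 41.4-fold, and the Il2 spots of an array scatter widely at low intensity.

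H2-Q7 did not pass the test of CIE against Control. CIE averaged 2.83 ± 2.26 and Control 2.18 ± 1.90 (SD, n = 5 each), so that CIE minus Control was 0.65 (SE 1.12) on the log2 scale, 95% interval -1.82 to 3.11, at an adjusted p of 0.989 by limma. In the same comparison 0 of 43080 probes were called (0%), and 921 (2.14%) lay at an unadjusted p under 0.05. The SD within each group was larger than this difference, and the interval includes changes of several-fold in either direction. Single arrays moved it: without CIE 2 the difference was -0.15, and without Control 1 it was 1.34. Without both it was 0.54. Arrays whose file headers share a scan date are called a slide here, since the labels name no slide. Slide 2 in this sense held CIE 8 and CIE 10 and no Control array. Within slide 1, with 3 CIE arrays, the difference was 1.75 (SE 1.23, adjusted p = 0.749 by limma). With slide as a block the estimate is the same by construction, since slide 2 held no Control array (SE 1.17, adjusted p = 0.784 by limma). In that slide-blocked fit 5.04% of all probes lay at an unadjusted p under 0.05.

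Arrays with consecutive sample numbers had similar H2-Q7 levels, although each such pair joins a Control and a CIE array. The pair of Control 1 and CIE 2 had a mean of 5.49, that of CIE 3 and Control 4 one of 3.87, and the other 3 pairs lay between 0.71 and 1.24. Differences between the 5 pairs made up 95.9% of the variance of H2-Q7 over the arrays, where the median over all tested probes was 71.4%. Inside the pairs, CIE exceeded Control by 1.05, 0.98, 0.42 and 0.82 log2 units in 4 of the 5, and in the pair of Control 9 and CIE 10 the difference was -0.05. With the pairs as a block the difference of 0.65 had an SE of 0.20, a 95% interval of 0.19 to 1.10 and an unadjusted p of 0.00970, and it did not pass (adjusted p = 0.272 by limma). In that fit 14.8% of all probes lay at an unadjusted p under 0.05. The labels do not say that these numbers pair the samples, and the pairs were known from earlier results of these arrays.

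Measures of array and RNA quality also varied, and in part moved with H2-Q7. Probes well above background made up between 65.3% and 74.0% on the arrays numbered 1 to 4 and between 61.6% and 77.0% on the others. The 3′ minus 5′ signal of the mouse GAPDH control probes, a sign of RNA integrity, was between 0.40 and 1.24 on the former and between 0.11 and 0.96 on the latter. It was highest on CIE 2, where H2-Q7 was highest too. Over the 10 arrays the correlation of H2-Q7 was -0.47 (Spearman rho = -0.75) with the share of probes well above background and 0.44 (rho = 0.50) with the GAPDH measure, and without CIE 2 and Control 1 these r were -0.30 and 0.22. The part of either measure in the H2-Q7 values was not tested. The control probe Human-GAPDH_5 was bright on Control 7 (2.80) and CIE 8 (3.49) and no higher than 0.47 on any of the other arrays. These arrays were also the lowest of the 10 for Gsdmd and for Il2. Leaving out this pair gave an H2-Q7 difference of 0.60 and took that of Gsdmd from 0.10 to 0.25.

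**Figure D2:**
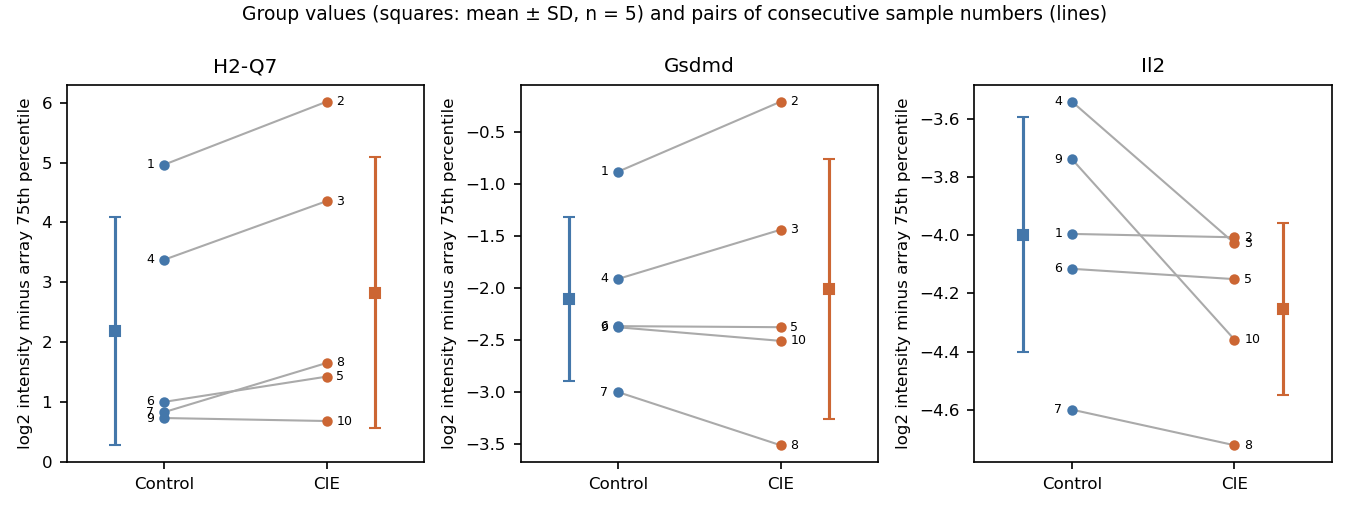
Log2 intensity minus the 75th percentile of the array for each gene in Control and CIE, with points for arrays (numbers as in the sample titles), squares and bars for the mean ± SD (n = 5) and lines joining consecutive sample numbers. The H2-Q7 lines lie far apart and 4 of 5 slope upward to CIE, those of Gsdmd run in both directions, and the Il2 values lie at or near background.

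Gsdmd was well above background on 9 of 10 arrays. Its level was -0.21 on CIE 2, -1.44 on CIE 3, -2.38 on CIE 5, -3.51 on CIE 8 and -2.51 on CIE 10. In Control it was -0.88 on Control 1, -1.91 on Control 4, -2.37 on Control 6, -3.00 on Control 7 and -2.38 on Control 9. The groups overlapped, and the CIE group held both the highest and the lowest array. On CIE 8, the array below detection, 1 of the 9 used spots was well above background, and its mean of 6.12 intensity units lies near background. After scaling, the 4 highest arrays for Gsdmd were CIE 2, Control 1, CIE 3 and Control 4, in the same order as for H2-Q7. In unscaled intensity Control 9 (37.0) lay above Control 4 (32.0) and CIE 3 (28.6).

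The SD of Gsdmd over the arrays was 0.98 log2 units, 5.47 times its median SD over spots and the fifth largest of the 43 named genes tested, and it lay above 91.3% of the tested probes. Control 6, CIE 5, Control 9 and CIE 10 lay next to each other with gaps smaller than the SD of their single spots. That SD is wider than the uncertainty of a mean over the spots. Pairs of consecutive numbers made up 94.5% of the variance. CIE was higher in 2 of the 5 pairs, by 0.67 and 0.47 for the pairs of numbers 1 and 2 and 3 and 4, and the other 3 differences were -0.01, -0.51 and -0.13. The sign inside the pairs was thus mixed for Gsdmd.

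Gsdmd did not pass the test. CIE averaged -2.01 ± 1.24 and Control -2.11 ± 0.79 (SD, n = 5 each), so that CIE minus Control was 0.10 (SE 0.57) on the log2 scale, 95% interval -1.16 to 1.36, at an adjusted p of 0.993 by limma. Its sign turned to -0.35 without CIE 2, -0.043 without CIE 3 and -0.12 without Control 7, and without CIE 8 the difference was 0.47. Within slide 1 it was 0.77 (SE 0.56, adjusted p = 0.749 by limma). With slide as a block the estimate is again the same by construction (SE 0.56, adjusted p = 0.784 by limma). With consecutive numbers as a block its SE was 0.21 and its 95% interval ran from -0.36 to 0.56. Without a block the interval reached from a 2.24-fold lower to a 2.57-fold higher level in CIE.

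Il2 was at or near background. More than 50% of its used spots were well above background on 2 of 10 arrays, Control 4 with 8 of 10 spots and Control 9 with 7 of 10. CIE 2 had 3 such spots of 10, Control 6 had 2 and CIE 10 had 1, and the remaining 5 arrays had 0. Over all used spots these were 17 of 49 in Control and 4 of 47 in CIE. Of all probes, 74.0% were well above background on Control 4, 77.0% on Control 9 and 75.2% on CIE 10. Over the 10 arrays Il2 had a correlation of 0.49 with that share, and 0.04 without CIE 8 and Control 4. With the log2 75th percentile of the signal it was 0.53, and 0.37 without them. The part of these measures in the Il2 values was not tested. Mean intensities ran from 2.64 on CIE 8 to 14.4 on Control 9, while the dimmest probe called well above background on an array read between 5.58 and 10.9. Spots of 1 array are not replicates of a condition, so no test was made of these counts.

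The level of Il2 was -4.01 on CIE 2, -4.03 on CIE 3, -4.15 on CIE 5, -4.72 on CIE 8 and -4.36 on CIE 10. In Control it was -4.00 on Control 1, -3.54 on Control 4, -4.12 on Control 6, -4.60 on Control 7 and -3.74 on Control 9. The groups overlapped, with the 3 highest values on Control arrays and the lowest on CIE 8. Il2 missed the filter of detection on at least 5 arrays and was not tested. CIE averaged -4.25 ± 0.30 and Control -4.00 ± 0.40 (SD, n = 5 each), and their difference of -0.25 describes signal near background. CIE was higher in 0 of the 5 pairs of consecutive numbers, with differences of -0.01, -0.49, -0.04, -0.12 and -0.62. In the table that the authors deposited, the difference between the groups was 0.02. Since Il2 was not well above background on any CIE array, its CIE level is a bound only, and that bound lies above the Control mean, so that no fold is given. The median SD over its spots was 0.50, larger than its SD of 0.36 over arrays. No array differed from the next in order by more than the larger of their spot SDs. These are SDs of single spots, while a level is the mean of the used spots and is steadier. They therefore do not show that the Il2 levels of the arrays are alike.

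**Figure D3:**
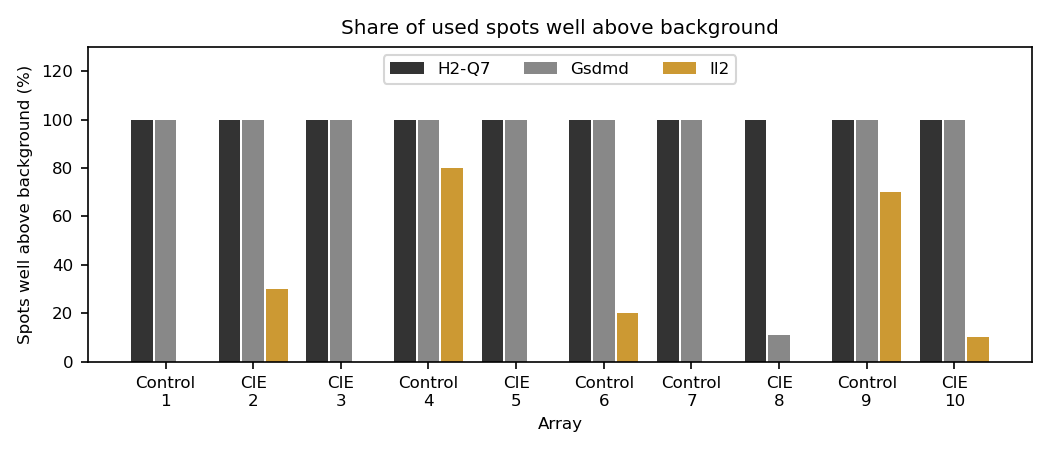
Share of used spots well above background (percent, bars from 0) for H2-Q7, Gsdmd and Il2 on each of the 10 arrays. H2-Q7 reaches 100% on every array, Gsdmd on 9 of them, and Il2 exceeds 50% on Control 4 and Control 9 alone.

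H2-Q7 and Gsdmd were also compared in pattern with the 42 other named genes tested, by Pearson correlation over the 10 arrays. These values describe the arrays and carry no p, since the genes were picked as the most alike and arrays of consecutive numbers resemble each other. Most like H2-Q7 were Nup50, a protein of the nuclear pore (r = 0.94, Spearman rho = 0.81), Gsdmd (r = 0.89, rho = 0.77) and Alkbh4, a demethylase of the AlkB family (r = 0.86, rho = 0.66). Without CIE 2 and Control 1, the arrays farthest from the median, these r were 0.89, 0.67 and 0.74. Least like it was Ppara, a lipid-sensing nuclear receptor (r = -0.89, and -0.71 without those arrays). The 5 brain markers also ran opposite to H2-Q7: r was -0.87 for Kcnn2 (rho = -0.92), -0.72 for Gabrg1, -0.71 for Mbp, -0.70 for Chgb and -0.64 for Apoe. Without CIE 2 and Control 1 their r lay between -0.74 for Kcnn2 and -0.26 for Apoe. This was not particular to the markers: r with H2-Q7 was -0.81 for Rps4l, -0.76 for Gamt and -0.71 for Olfr1307, which are not on these lists. With Gsdmd the r of the markers lay between -0.57 for Kcnn2 and -0.36 for Mbp. Without the same arrays it lay between -0.08 for Chgb and 0.41 for Apoe. The part of such cell types in the H2-Q7 values was not tested.

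Most like Gsdmd were Nup50 (r = 0.91), Trp53rka, a kinase that acts on p53 (r = 0.90), and Alkbh4 (r = 0.89), and least like it was Hspb7, a small heat shock protein that was well above background on 5 of 10 arrays, so that part of its values lies at background (r = -0.84). Without CIE 2 and Control 1 these r were 0.67, 0.79, 0.80 and -0.41. H2-Q7 came after them at r = 0.89, as the fourth in order. Probes without a name showed such patterns too. Of the 42856 other tested probes, 1429 (3.33%) had an r of at least 0.9 with H2-Q7 and 1544 (3.60%) with Gsdmd, and the median r over all of them was -0.19 and -0.18.

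**Figure D4:**
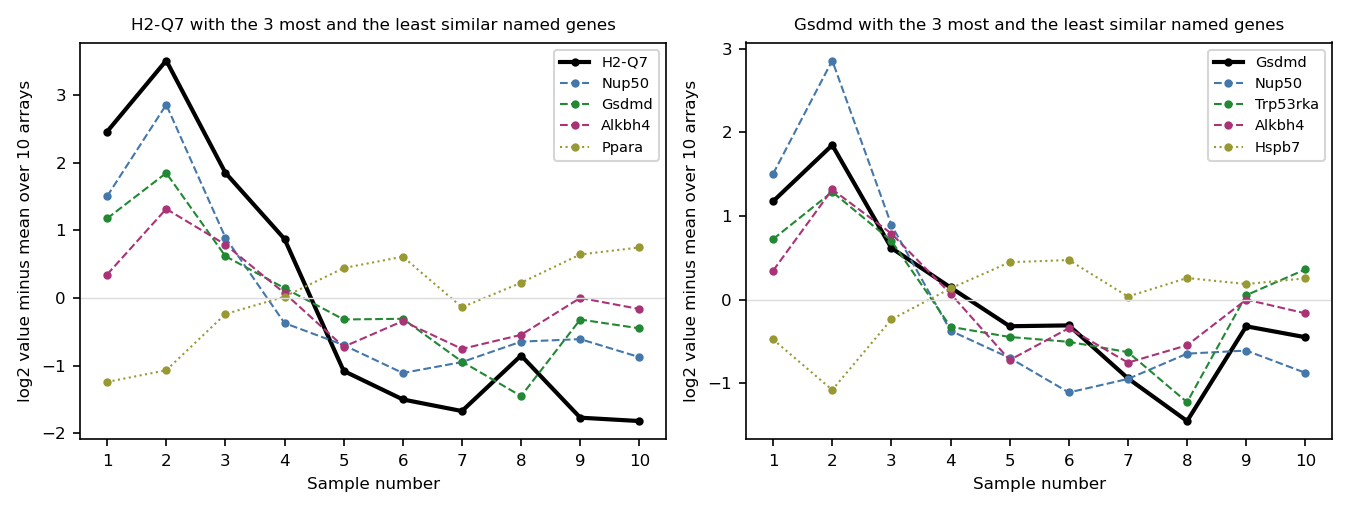
Log2 values minus the mean of each gene over the 10 arrays, against sample number, for H2-Q7 (left) and Gsdmd (right, both solid black) with the 3 most similar named genes (dashed) and the least similar one (dotted). H2-Q7, Gsdmd, Nup50 and Trp53rka are highest on CIE 2 and Control 1, where Ppara and Hspb7 are lowest, and Alkbh4 is highest on CIE 2 and CIE 3.

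Few partners of these genes could be followed by name. Of 28 listed genes of MHC class I and antigen presentation, a list that does not hold H2-M2, the arrays name 1, H2-Q7 itself, and of 27 genes of pyroptosis and the inflammasome 1, Gsdmd. Both were tested, and 0 passed in either direction. Of 19 genes of the interleukin-2 family and its receptor signalling 1 is named, Il2, and it was not tested. Beta-2 microglobulin, the inflammatory caspases and the interleukin-2 receptor chains were not analysed here. Among the brain markers, neither the 3 genes of the neuron list nor the 1 oligodendrocyte and 1 astrocyte gene passed. CIE minus Control was -0.60 (SE 0.36) for Chgb, -0.87 (SE 0.55) for Gabrg1 and -0.22 (SE 0.30) for Kcnn2. It was 0.03 (SE 0.32) for Mbp and -0.08 (SE 0.34) for Apoe. The median over all 43080 probes tested was -0.05.

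**Figure D5:**
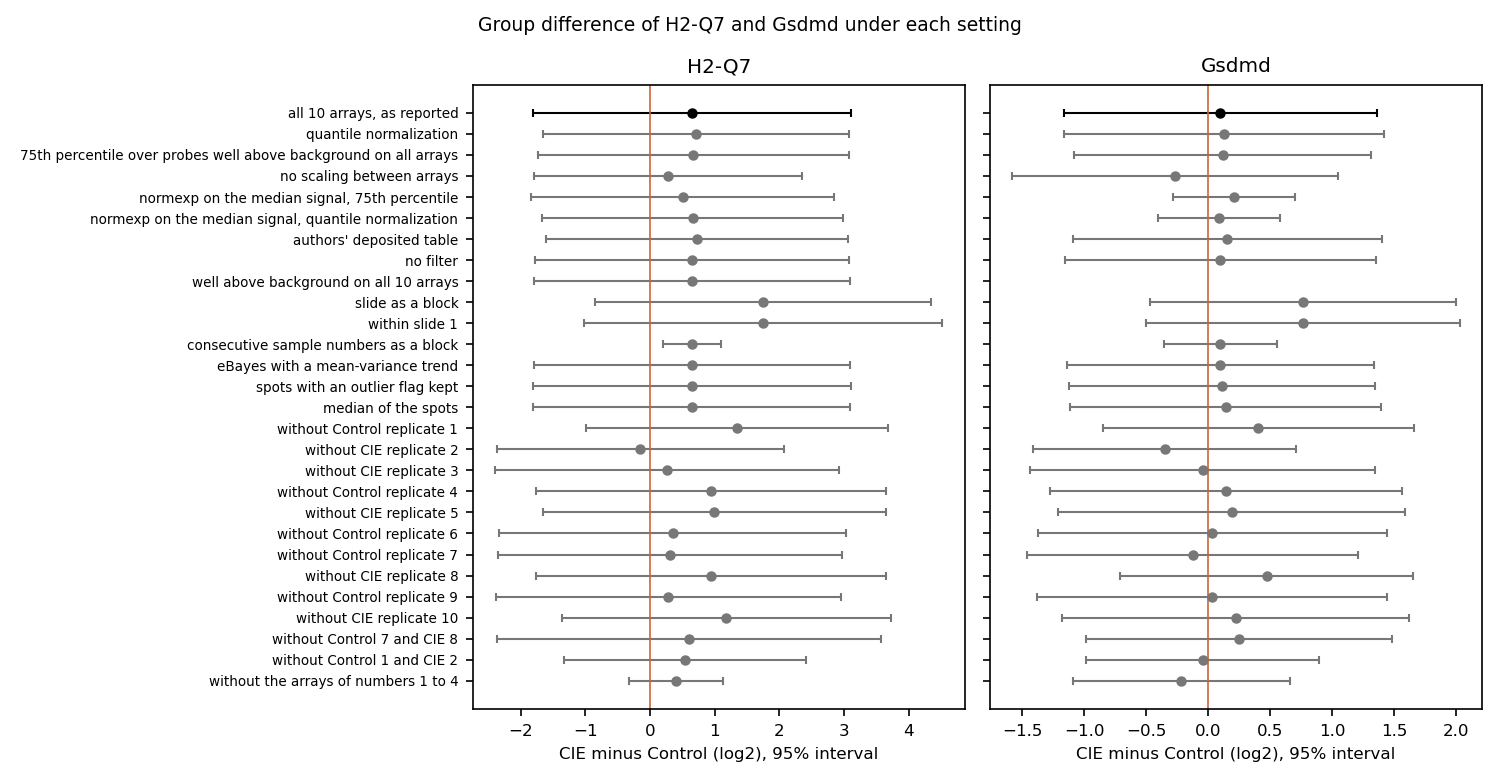
Difference between CIE and Control (log2) with its 95% interval for H2-Q7 (left) and Gsdmd (right) over all 10 arrays (black) and under each other setting (grey), with a line at 0. The intervals include 0 except that of H2-Q7 with consecutive sample numbers as a block, from 0.19 to 1.10, and the estimate without CIE 2 is below 0 for both genes.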

How the data were processed

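RNA of 10 vesicle preparations, 5 Control and 5 CIE, was measured on single-colour arrays. Per the file headers, the authors read each spot as a linear intensity with version 11.0.1.1 of Agilent Feature Extraction, which also subtracted the background. A further deposited table of these arrays, taken as log2 from its values and with its normalization not given in the sources, served as an alternative.

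Outlier-marked spots (27 to 150 per array) were left out, no spot was saturated, replicate spots were averaged as log2, and each array was centred on the 75th percentile of its 60823 non-control probes. A probe counted as detected where more than 50% of its used spots were well above background. The 43080 probes detected on at least 5 arrays (70.8%) were tested with limma 3.58.1 in R 4.3.3 (lmFit and eBayes, Benjamini-Hochberg adjustment over all of them, threshold 0.05). The procedure was also run on simulated data. These held independent normal values for each array, without the likeness of arrays with consecutive numbers, so nothing is concluded from them here. With 5 arrays per group, the median SE of a difference was 0.30, which limits what can be resolved.

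The members, lists and alternatives were chosen with earlier results of these data known. The text names the 3 genes, the 3 most and 1 least similar named genes for each tested one, and listed genes that the arrays name. Any other gene was chosen after its values were seen. Of 50 probes with a public transcript identifier, 46 matched a RefSeq symbol (GRCm38.p6). The array design names another build, so gene coordinates are not given apart from those of the RefSeq promoter sequences. The promoter table gave H2-Q7, H2-Q6 and Il2. Normexp used the median spot signal, in place of the planned mean signal.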

Additional observations from a re-analysis of the deposited data

How the results depend on the processing

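Across 28 other settings limma called 0 probes in each. H2-Q7 kept a positive difference in 27 of 28 settings and did not pass in any (adjusted p from 0.272 to 1.000). Several settings cannot change the estimate of H2-Q7 or Gsdmd, so such counts do not measure robustness. By construction H2-Q7 stayed at 0.65 with no filter, with detection on all 10 arrays and with a mean-variance trend in eBayes. The same held with consecutive numbers as a block and without the first Gsdmd spot. Slide as a block and slide 1 alone share 1 estimate. Leaving out 1 array moved the H2-Q7 difference between -0.15 (without CIE 2) and 1.34, and the other settings between 0.28 and 1.75. Gsdmd turned below 0 in 6 of 27 settings: -0.26 without scaling, -0.045 without Control 1 and CIE 2, -0.22 without the arrays numbered 1 to 4, and 3 of the single-array removals (-0.35 to -0.043), where all 10 removals ran from -0.35 to 0.47. Without scaling the median of all probes moved from -0.05 to -0.42. Gsdmd gave no value under detection on all 10 arrays. Il2 was at 0.15 under normexp with the 75th percentile, at 0.02 in the authors' table, and from -0.41 to -0.14 without single arrays. It was detected on 5 arrays by any spot or 0 by all spots. Its SD over arrays was 0.72 without scaling, 0.23 under normexp (which took that of Gsdmd to 0.38) and 0.18 in the table that the authors deposited. Without scaling, the difference in brightness between arrays stays in the values. Normexp was run with an offset of 50 added before the log2, while mean processed intensities of Il2 ran from 2.64 to 14.4. Such an offset narrows log2 differences between dim spots by arithmetic. The part of each step in these changes was not tested. Counts at an unadjusted p under 0.05 ran from 402 to 2347 without single arrays. The labels give no pairing of the samples, and each sample number is used once over both groups. A pairing by label was therefore not possible, and the block used consecutive numbers instead. The 2 removals of array sets, the removal of the first Gsdmd spot and normexp on the median signal were chosen after seeing the data.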

Other observations

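Among the other named genes with an immune role, chosen after their values were seen, neither passed the test. H2-M2, another non-classical MHC class I gene, was well above background on 10 of 10 arrays, at 3.30 ± 0.57 for CIE and 3.06 ± 0.54 for Control (SD, n = 5 each), with CIE minus Control at 0.24 (SE 0.33, adjusted p = 0.989 by limma). Its SD over the 10 arrays was 0.54, against 2.00 for H2-Q7. It was the fourth most like H2-Q7 in pattern (r = 0.78, rho = 0.66, and r = 0.32 without CIE 2 and Control 1), and it too was highest on CIE 2 and Control 1. Mzb1, an endoplasmic reticulum protein of B cells and plasma cells, was well above background on 8 of 10 arrays, at -2.78 ± 0.79 for CIE and -2.85 ± 0.78 for Control (SD, n = 5 each), with CIE minus Control at 0.08 (SE 0.45, adjusted p = 0.993 by limma).

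The first of the 10 Gsdmd spots read highest on 10 of 10 arrays, with a median of 1.62 times the median of the spots on the array. On 6 of these arrays the software marked it as an outlier. The brightest spot near it had a median intensity of 99621 over the arrays. The other 9 Gsdmd spots had a median ratio between 0.94 and 1.04. Among them was spot 8, whose brightest neighbour had a median of 24046 (ratio 0.94). The cause of the high reading was not tested. Without the first spot the Gsdmd difference was 0.11.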
